A study of Mus musculus with 4 samples.

Results

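The 7 genes *Ms4a4a*, *Ms4a4b*, *Ms4a4c*, *Ms4a6b*, *Ms4a6c*, *Ms4a6d* and *Ms4a7* were followed across the leukocytes of mouse lower limb vessels. They were chosen by name, as members of the membrane-spanning 4-domains subfamily A (MS4A) that myeloid cells and T cells are known to use. Earlier results of these data were known when the choice was made. The members are 7 of the 30406 genes counted in all 4 single-cell RNA-sequencing (scRNAseq) libraries of the study. The study set out to describe lymphatic muscle cells and their response to tumor necrosis factor (TNF) in arthritis, and the leukocytes came along with the vessels. Each library was made from popliteal lymphatic vessels (PLVs) and the adjacent superficial saphenous veins (SSVs) of 3 pooled mice on a C57BL/6J background. The tdT1 and tdT2 libraries came from *Cspg4*-Cre;tdTomato mice, in which Cre is driven by the promoter of the pericyte and smooth muscle gene *Cspg4* and turns on a red reporter, and held cells sorted as tdT+. The WT library came from male wild-type mice and the TNF-Tg library from male mice that carry a TNF transgene and develop inflammatory-erosive arthritis, both labelled as 9 months old and sorted by scatter without a reporter. With 1 library per condition, no difference between TNF-Tg and WT could be tested, and because each library was prepared on its own day, condition and batch cannot be told apart. The tdT libraries were sorted for stromal cells, so the leukocytes they hold are what passed that gate.

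MS4A proteins cross the membrane several times, with both ends in the cytoplasm, and many of them sit beside receptors that signal through immunoreceptor motifs. The best known are CD20 of B cells, encoded by *Ms4a1*, and the beta chain of the high-affinity IgE receptor of mast cells and basophils, encoded by *Ms4a2*. The genes lie in a tandem cluster that has expanded differently in mouse and human, so that mouse has several *Ms4a4* and *Ms4a6* paralogs where human has fewer. *Ms4a4a* and *Ms4a7* are known as macrophage genes, *Ms4a4b* as a gene of T and NK cells, and *Ms4a4c*, *Ms4a6b*, *Ms4a6c* and *Ms4a6d* as genes of monocytes and macrophages.

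All 7 genes are protein coding and lie within 283.811 kb of chromosome 19 (GRCm38, GENCODE M21 annotation), from position 11321039 to 11604849. In order along the chromosome they are *Ms4a7* (11321039 to 11336146, minus strand), *Ms4a4a* (11375523 to 11392790, plus), *Ms4a4c* (11404770 to 11427246, plus), *Ms4a4b* (11443553 to 11467055, plus), *Ms4a6c* (11469366 to 11482192, plus), *Ms4a6b* (11516512 to 11531256, plus) and *Ms4a6d* (11586604 to 11604849, minus). *Ms4a4b* and *Ms4a4c* are the closest pair, with 91.7% identity over 678 aligned coding bases. The next are *Ms4a6b* and *Ms4a6d* with 80.1% and *Ms4a6b* and *Ms4a6c* with 74.7%. The remaining pairs range from 46.8% to 67.2%. The first 90 coding bases of *Ms4a4b* and *Ms4a4c* are shown because these near-identical neighbours were counted in different cell types below, and the 7 bases at which they differ are in capitals:
*Ms4a4b* coding start: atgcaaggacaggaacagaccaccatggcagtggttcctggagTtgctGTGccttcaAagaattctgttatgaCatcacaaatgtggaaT
*Ms4a4c* coding start: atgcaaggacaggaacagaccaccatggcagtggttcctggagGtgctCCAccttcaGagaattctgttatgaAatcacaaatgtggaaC

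Reads of a 3-prime library come from the end of a transcript, and in the last 500 bases the longest stretch shared by *Ms4a4b* and *Ms4a4c* is 11 bases. For *Ms4a6b* and *Ms4a6c* it is 60 bases and for *Ms4a6b* and *Ms4a6d* 13 bases. Within these last 500 bases, reads that lie in the stretch of 60 bases could match both *Ms4a6b* and *Ms4a6c* exactly. Without the limit to the last 500 bases, the longest shared stretch is 96 bases for this pair and 127 for *Ms4a4b* and *Ms4a4c*. Read length and reads shared between genes were not examined, so an effect on the counts of either pair was not tested.

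RefSeq (GRCm38.p6) promoter windows were found for 6 of the 7 genes, with 250 bases before each transcript start used here. The 4 windows of the *Ms4a4b*/*Ms4a4c* and *Ms4a6b*/*Ms4a6c* pairs are shown because the members of each pair differ in where they were counted, and capitals mark the longest stretch that each shares with its partner:
*Ms4a4c* promoter, chr19:11407411-11407660, plus strand: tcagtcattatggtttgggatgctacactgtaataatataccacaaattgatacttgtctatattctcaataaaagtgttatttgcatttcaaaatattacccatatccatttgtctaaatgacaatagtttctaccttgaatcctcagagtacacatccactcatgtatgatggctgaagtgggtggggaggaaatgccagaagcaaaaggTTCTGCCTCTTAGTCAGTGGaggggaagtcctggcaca
*Ms4a4b* promoter, chr19:11443308-11443557, plus strand: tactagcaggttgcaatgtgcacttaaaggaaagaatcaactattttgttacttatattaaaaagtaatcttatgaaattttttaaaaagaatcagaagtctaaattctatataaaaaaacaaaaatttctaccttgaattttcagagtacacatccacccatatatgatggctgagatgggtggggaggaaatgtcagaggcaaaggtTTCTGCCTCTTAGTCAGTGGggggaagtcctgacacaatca
*Ms4a6c* promoter, chr19:11469118-11469367, plus strand: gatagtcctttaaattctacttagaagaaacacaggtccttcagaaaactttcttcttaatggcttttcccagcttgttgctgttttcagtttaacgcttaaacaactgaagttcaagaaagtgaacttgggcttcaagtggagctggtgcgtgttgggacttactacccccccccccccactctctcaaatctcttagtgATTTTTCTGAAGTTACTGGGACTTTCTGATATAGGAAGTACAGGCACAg
*Ms4a6b* promoter, chr19:11518309-11518558, plus strand: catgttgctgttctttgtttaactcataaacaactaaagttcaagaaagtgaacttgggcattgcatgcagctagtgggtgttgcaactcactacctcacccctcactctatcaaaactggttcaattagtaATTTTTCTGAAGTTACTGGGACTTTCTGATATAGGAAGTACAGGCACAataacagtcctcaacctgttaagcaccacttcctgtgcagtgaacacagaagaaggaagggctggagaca

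The *Ms4a4b* and *Ms4a4c* windows are 68.8% identical and share an unbroken stretch of 20 bases that begins 41 and 38 bases before the respective start. Those of *Ms4a6b* and *Ms4a6c* share a stretch of 48 bases, although it begins 118 bases before the start in *Ms4a6b* and 49 in *Ms4a6c* and the windows as a whole are 45.8% identical. GAGGAA, the core of sites of the myeloid and lymphoid factor PU.1, was searched on both strands and occurs once in the *Ms4a4c* window and once in the *Ms4a4b* window, beginning 61 and 64 bases before the start, as it does in 23.3% of 32851 windows of this length. TGTGGT, a Runx core, occurs once in the *Ms4a4c* window and in 14.05% of all windows. TGANTCA, an AP-1 site, occurs in 1 of the 7 windows of the 6 genes, a window of *Ms4a7*, and in 6.75% of all windows. These matches describe letters and are not evidence of binding.

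Cells were assigned to 14 leukocyte gates by counting how many genes of fixed marker lists had a unique molecular identifier (UMI) in the cell, and no *Ms4a* gene was among the markers. Cells are called by the list that gated them. Leukocyte gates held 2565 of 5488 cells in WT, 1770 of 3391 in TNF-Tg, 136 of 1504 in tdT1 and 141 of 454 in tdT2. Cells with markers of several lineages, such as doublets, were left out. Levels are UMIs of a gene scaled to a common total of all UMIs of a gate in a library, as counts per 1000000 UMIs (CPM), and only sums of at least 20 cells are described. The WT and TNF-Tg libraries were the deepest, with medians of 12660 and 10605 UMIs per cell, against 6393.5 and 4932.5 in tdT1 and tdT2. Between 2 and 8 barcodes of each library also occurred in another library. Of the UMIs of the 7 genes, 85.9% in WT and 79.7% in TNF-Tg fell into leukocyte gates. In stromal cells, which served as the background for free RNA, no member exceeded 3.95 CPM in WT, 7.83 CPM in TNF-Tg and 0.757 CPM in the tdT libraries.

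**Figure D1:**
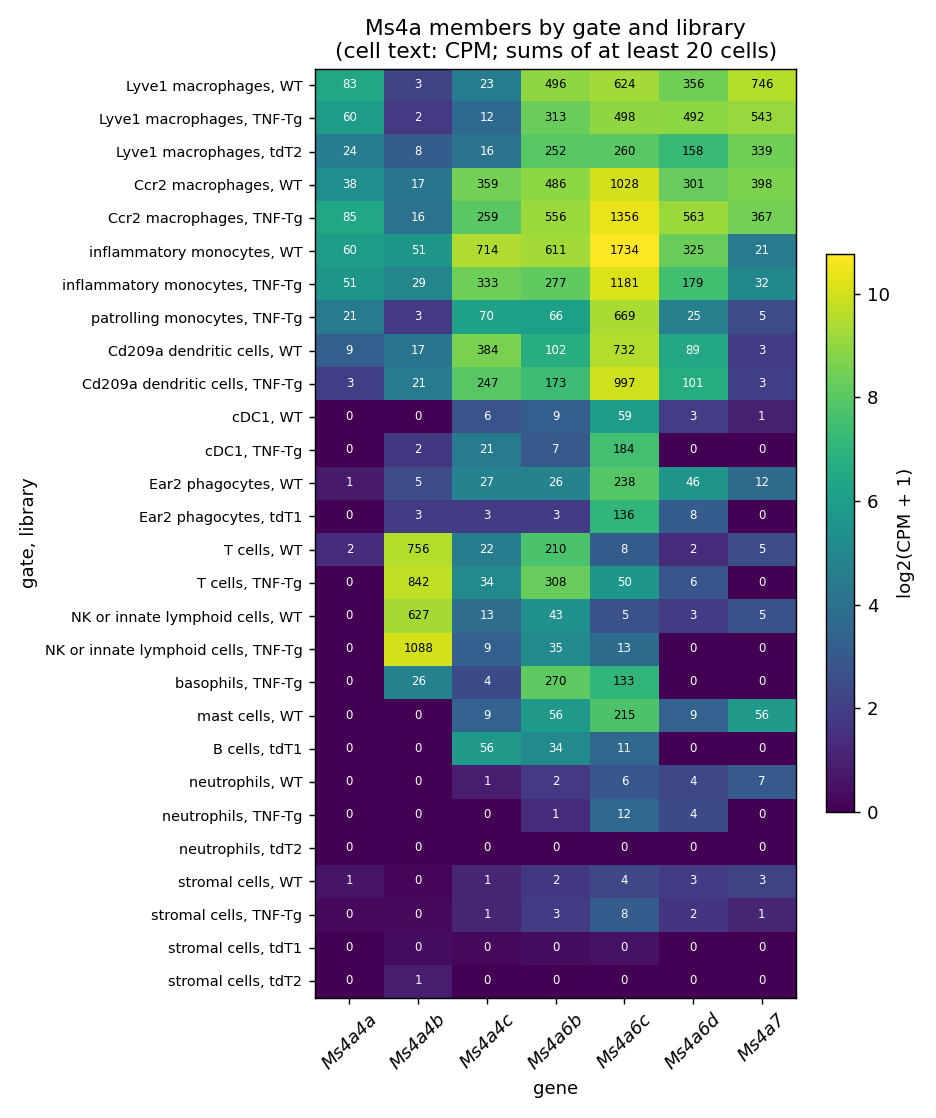
Heatmap of the level of each *Ms4a* gene (columns) in each gate and library (rows, sums of at least 20 cells), coloured by log2(CPM + 1) and labelled with the CPM. *Ms4a6c* was high in every monocyte, macrophage and Cd209a dendritic cell row, *Ms4a7* was high in the macrophage rows and *Ms4a4b* in the T and NK rows, while stromal cells and neutrophils were near 0.

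*Ms4a7* was highest in the macrophages. In Lyve1 macrophages, which carry the resident-type genes *Lyve1*, *Cd163* and *Folr2*, it was counted at 746 CPM in WT, 543 CPM in TNF-Tg and 339 CPM in tdT2. Both macrophage gates required at least 6 of 9 pan-macrophage markers and at least 2 complement C1q genes. Ccr2 macrophages had at most 5 markers of the Lyve1 list. They also had at least 2 of *Trem2*, *Cd93*, *Ciita* and the chemokine receptor gene *Ccr2*, so *Ccr2* itself was not required. This gate held 193 WT and 153 TNF-Tg cells, and 60 WT and 24 TNF-Tg gated macrophages had 5 Lyve1 list markers. In Ccr2 macrophages *Ms4a7* was counted at 398 (WT) and 367 CPM (TNF-Tg). The ranges of the 2 macrophage gates overlapped and lay above that of every other gate. Inflammatory monocytes held 21.1 (WT) and 31.5 CPM (TNF-Tg), patrolling monocytes 4.63 CPM in TNF-Tg, and Cd209a dendritic cells 2.71 and 2.99 CPM, the last within the stromal range. Mast cells of WT held 56.0 CPM, from only 6 UMIs in cells with a median of 935 UMIs. After each cell was thinned to 3000 UMIs, 84.9% of WT and 74.1% of TNF-Tg Lyve1 macrophages had a *Ms4a7* UMI, against 5.17% and 4.50% of inflammatory monocytes and 0.980% and 0.291% of stromal cells. Without thinning the shares were 98.2% and 94.7% in Lyve1 macrophages, 10.3% and 11.9% in inflammatory monocytes and 3.19% and 0.736% in stromal cells.

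*Ms4a6c* was the most widely used paralog. It was highest in inflammatory monocytes, the Ly6c2-positive cells that blood delivers to inflamed tissue, at 1734 (WT) and 1181 CPM (TNF-Tg). Ccr2 macrophages followed with 1028 (WT) and 1356 CPM (TNF-Tg), a range that overlapped with that of the monocytes. Cd209a dendritic cells held 732 and 997 CPM, patrolling monocytes 669 CPM in TNF-Tg, and Lyve1 macrophages 624 CPM in WT, 498 CPM in TNF-Tg and 260 CPM in tdT2, each range below the one before. Ear2 phagocytes, a gate defined by *Ear2* and *Retnla*, held 238 CPM in WT and 136 CPM in tdT1. Cross-presenting dendritic cells (cDC1) held 58.97 (WT) and 184 CPM (TNF-Tg), so that the dendritic cell gates differed from each other by more than the libraries did. In cells thinned to 3000 UMIs, *Ms4a6c* was found in 98.3% (WT) and 94.0% (TNF-Tg) of inflammatory monocytes, in 83.8% and 89.0% of Cd209a dendritic cells and in 77.8% of patrolling monocytes, against 0.686% and 1.26% of stromal cells. The unthinned shares were 100% and 99.8%, 97.6% and 97.2%, and 90.4%, against 2.58% and 3.40%.

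*Ms4a4c* was used by inflammatory monocytes, Cd209a dendritic cells and Ccr2 macrophages and hardly by Lyve1 macrophages. It was counted at 714 (WT) and 333 CPM (TNF-Tg) in inflammatory monocytes, at 384 and 247 CPM in Cd209a dendritic cells and at 359 and 259 CPM in Ccr2 macrophages, and these 3 gates overlapped. In Lyve1 macrophages it was 22.6 CPM in WT, 11.7 CPM in TNF-Tg and 15.8 CPM in tdT2, the last from 2 UMIs. No library of Lyve1 macrophages reached the lowest value of those 3 gates. Patrolling monocytes, the vessel-crawling type gated by *Treml4*, *Ace* and *Spn*, held 69.5 CPM. *Ms4a4c* was detected in 75.9% and 55.9% of thinned inflammatory monocytes of WT and TNF-Tg, but in 4.53% and 2.23% of Lyve1 macrophages and 0.294% and 0.485% of stromal cells.

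*Ms4a4b*, its near-identical neighbour, was counted mainly in lymphocytes. T cells held 756 (WT) and 842 CPM (TNF-Tg), and the NK or innate lymphoid gate 627 and 1088 CPM, with overlapping ranges. The next gate, inflammatory monocytes, reached 51.2 (WT) and 28.6 CPM (TNF-Tg). Both lymphoid gates were therefore above every myeloid sum. The list of the NK or innate lymphoid gate holds *Il7r*, *Gata3* and *Rora* beside NK genes. After thinning to 3000 UMIs, 47.7% (WT) and 55.4% (TNF-Tg) of T cells had a *Ms4a4b* UMI. In the NK or innate lymphoid gate the shares were 32.4% and 51.2%, so many cells of both gates had none. Of the UMIs of this pair, *Ms4a4b* took 97.1% in WT and 96.1% in TNF-Tg T cells and 97.9% and 99.2% in the NK gate. In inflammatory monocytes it took 6.69% and 7.91%, in Cd209a dendritic cells 4.25% and 7.73%, and in Ccr2 macrophages 4.51% and 5.76%. Lyve1 macrophages gave it 12.7% (WT) and 17.5% (TNF-Tg), the latter from 7 and 33 UMIs, and WT Ear2 phagocytes 15.1%. The exact 95% intervals of the lymphoid shares reached down to 93.9% at the lowest, and those of the myeloid shares named here up to 32.8% at the highest.

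The 3 *Ms4a6* paralogs divided the cells differently. *Ms4a6b* led the *Ms4a6* genes in T cells, at 210 (WT) and 308 CPM (TNF-Tg), while *Ms4a6d* was at 1.59 and 5.96 CPM there. *Ms4a6b* was also high in macrophages and monocytes. It was counted at 496, 313 and 252 CPM in Lyve1 macrophages of WT, TNF-Tg and tdT2. Ccr2 macrophages held 486 and 556 CPM and inflammatory monocytes 611 and 277 CPM in WT and TNF-Tg. The T cell range thus overlapped with those of Lyve1 macrophages and inflammatory monocytes and lay below that of Ccr2 macrophages. Basophils of TNF-Tg, the 1 basophil sum large enough, held 270 CPM of *Ms4a6b* and 133 CPM of *Ms4a6c*. The NK gate held 43.1 and 35.1 CPM.

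*Ms4a6d* and *Ms4a4a* were genes of macrophages and inflammatory monocytes. *Ms4a6d* was counted at 356 CPM in WT, 492 CPM in TNF-Tg and 158 CPM in tdT2 Lyve1 macrophages, at 301 and 563 CPM in Ccr2 macrophages and at 325 and 179 CPM in inflammatory monocytes. These 3 gates overlapped and lay above Cd209a dendritic cells, at 88.8 and 101 CPM. *Ms4a4a* was lower, at 83.4 CPM in WT, 60.4 CPM in TNF-Tg and 23.6 CPM in tdT2 Lyve1 macrophages, 38.3 and 85.4 CPM in Ccr2 macrophages and 60.2 and 50.8 CPM in inflammatory monocytes, again with overlapping ranges. Patrolling monocytes held 21.1 CPM and Cd209a dendritic cells 8.53 and 2.99 CPM of *Ms4a4a*. No UMI of it was counted in WT or TNF-Tg neutrophils, cDC1 or NK cells, which in WT neutrophils allows up to 2.43 CPM, the level of 3 UMIs.

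Within each cell type the 7 genes were also compared as shares of their summed UMIs, in which the depth of the library cancels. They took 2332 CPM together in WT and 1920 CPM in TNF-Tg Lyve1 macrophages, 2627 and 3202 CPM in Ccr2 macrophages, 3517 and 2081 CPM in inflammatory monocytes, 1336 and 1545 CPM in Cd209a dendritic cells and 1004 and 1240 CPM in T cells. Lyve1 macrophages had the smallest leading share of these gates. Their leading member was *Ms4a7* with 32.0% in WT, 28.3% in TNF-Tg and 32.1% in tdT2, followed by *Ms4a6c* with 26.8% in WT and 25.9% in TNF-Tg. Inflammatory monocytes gave 49.3% in WT and 56.7% in TNF-Tg to *Ms4a6c* and 20.3% and 16.0% to *Ms4a4c*. Cd209a dendritic cells gave 54.8% and 64.6% to *Ms4a6c*, and patrolling monocytes of TNF-Tg 78.0%. T cells gave 75.3% and 67.9% to *Ms4a4b* and 20.9% and 24.8% to *Ms4a6b*, and the NK gate 89.96% and 95.02% to *Ms4a4b*. Over the 19 sums with at least 50 UMIs of the 7 genes, *Ms4a6c* led in 11, *Ms4a4b* in 4, *Ms4a7* in 3 and *Ms4a6b* in 1, the basophils with 62.4%.

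**Figure D2:**
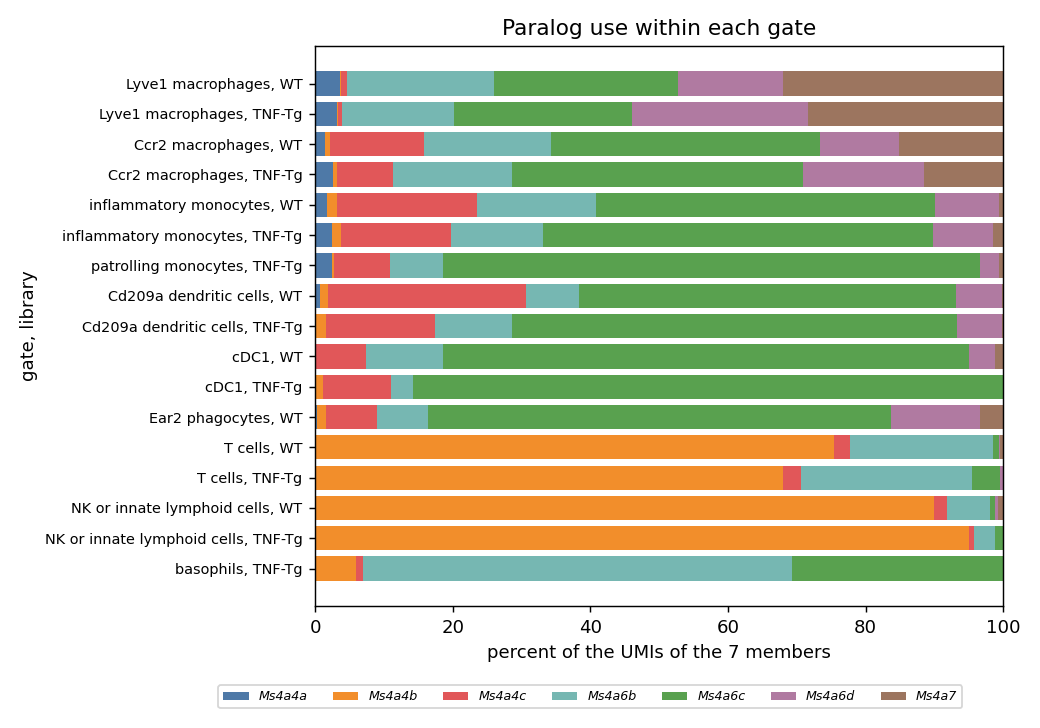
Stacked bars of the percent of the UMIs of the 7 *Ms4a* genes taken by each gene, per gate, for WT and TNF-Tg. *Ms4a7* filled 32.0% and 28.3% of the Lyve1 macrophage bars and *Ms4a4b* 75.3% and 67.9% of the T cell bars, while *Ms4a6c* was the widest band in monocytes and Cd209a dendritic cells.

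Single cells held several members at once. Of Lyve1 macrophages thinned to 3000 UMIs, 46.8% in WT and 26.3% in TNF-Tg had UMIs of at least 4 members, as did 36.8% and 58.9% of Ccr2 macrophages and 51.7% and 18.4% of inflammatory monocytes. The order of WT and TNF-Tg was thus opposite in the macrophage gates. In Cd209a dendritic cells the shares were 7.78% and 4.47%, in patrolling monocytes of TNF-Tg 0.472%, and none of 65 WT and 74 TNF-Tg T cells had 4 members. Among stromal cells it was 0% in WT and 0.194% in TNF-Tg.

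The gates were then compared in a model that used all 24 sums of at least 20 cells, with the library as a block. edgeR's quasi-likelihood test was run over 10546 genes and 13 gates, and an adjusted p below 0.01 was called. The sums of 1 library share their mice, and p-values measure only the spread between these sums. Between inflammatory monocytes and Lyve1 macrophages 3 of the 7 members were called higher, against 8.66% of all genes, and 1 lower, against 9.41%. *Ms4a4c* was higher in monocytes by 5.05 ± 0.39 on the log2 scale (SE, adjusted p = 5.17e-10), *Ms4a4b* by 3.70 ± 0.42 (adjusted p = 3.98e-07) and *Ms4a6c* by 1.55 ± 0.40 (adjusted p = 0.00505). *Ms4a7* was lower, at -4.21 ± 0.39 (adjusted p = 1.02e-08). *Ms4a4a*, *Ms4a6b* and *Ms4a6d* differed by -0.18, 0.29 and -0.54, with adjusted p of 0.772, 0.596 and 0.230. The median over the 7 members was 0.29, against -0.03 over all genes. The call of *Ms4a6c* was lost in 6 of 13 alternatives, without the WT library (adjusted p = 0.0915), without the TNF-Tg library (adjusted p = 0.132), with DESeq2 size factors (adjusted p = 0.0117), with the DESeq2 test (adjusted p = 0.0809), without the library block (adjusted p = 0.0163) and with 1 more marker per gate (adjusted p = 0.0332).

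Ccr2 macrophages, compared with Lyve1 macrophages, had 2 members called higher and 0 lower, against 2.38% and 2.39% of all genes. *Ms4a4c* was higher by 4.27 ± 0.38 (SE, adjusted p = 2.09e-08) and *Ms4a4b* by 2.45 ± 0.42 (adjusted p = 0.000356) on the log2 scale. *Ms4a6c* at 1.12 ± 0.40 (adjusted p = 0.0880) and *Ms4a7* at -0.63 ± 0.33 (adjusted p = 0.298) did not pass. The *Ms4a4b* call was lost without WT (adjusted p = 0.0375) and without TNF-Tg (adjusted p = 0.0302). The members' median was 0.47, against -0.04 over all genes. The macrophage gates are ends of a range and 130 WT and 26 TNF-Tg macrophages with 6 of the 9 Lyve1 list markers stood in neither, so the members were also followed along it.

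**Figure D3:**
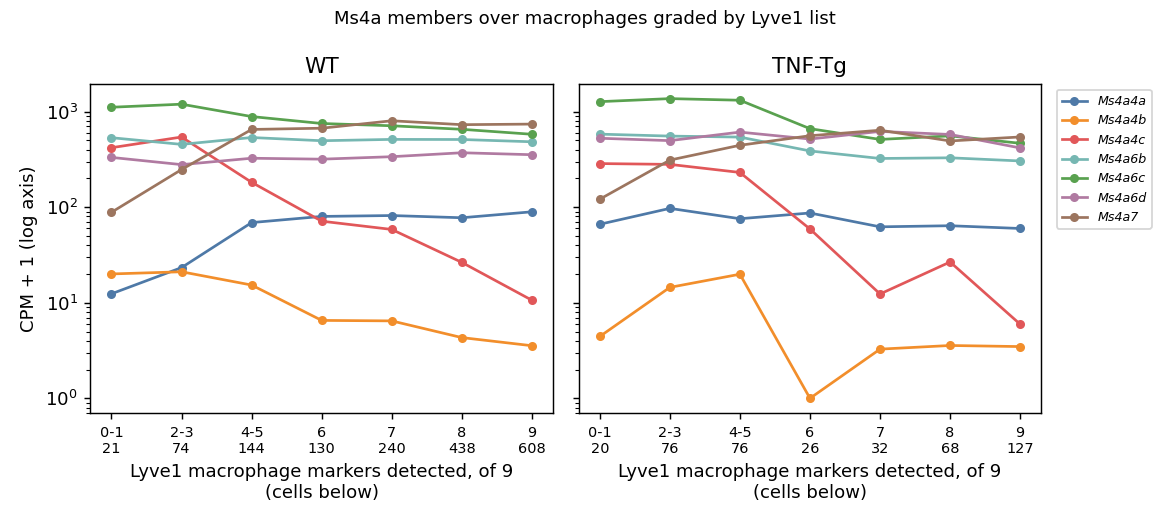
Level of each *Ms4a* gene (CPM + 1, log axis) in macrophages with a given number of the 9 Lyve1 list markers detected, for WT and TNF-Tg, with the number of cells under each tick. *Ms4a4c* went from 418 CPM at 0 or 1 marker to 9.63 CPM at 9 markers in WT and from 285 to 4.96 CPM in TNF-Tg, while *Ms4a7* went from 87.5 to 740 CPM and from 120 to 542 CPM.

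Along this range *Ms4a4c* and *Ms4a7* ran in opposite directions in both libraries. With 2 or 3 markers *Ms4a4c* was at 541 (WT) and 280 CPM (TNF-Tg), with 6 markers at 70.4 and 58.1 CPM and with 9 at 9.63 and 4.96 CPM. *Ms4a7* reached 247 and 310 CPM with 2 or 3 markers and 670 and 559 CPM with 6, and then stayed between 729 and 801 CPM in WT and between 492 and 638 CPM in TNF-Tg. *Ms4a6c* went from 1111 to 579 CPM in WT and from 1271 to 465 CPM in TNF-Tg. *Ms4a6b* differed little in WT, at 532 and 483 CPM at the ends, but stood at 581 and 304 CPM in TNF-Tg. *Ms4a4a* went from 11.4 to 88.5 CPM in WT, whereas in TNF-Tg it was at 65.3 CPM at the low end and 58.9 CPM at the high end. The lowest bin held 21 WT and 20 TNF-Tg cells, and the trends carry no test.

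Patrolling monocytes could be compared with inflammatory monocytes through TNF-Tg alone, the 1 library with enough of them (218 cells, against 4 in WT). The gate thus rests on 1 sum with no spread of its own, and its p-values assume that this sum varies like those of the other gates. Of the members 4 were called lower and 0 higher, against 0.673% and 1.09% of all genes. *Ms4a6d* stood at -3.48 ± 0.51 on the log2 scale (SE, adjusted p = 0.000112), *Ms4a4b* at -3.95 ± 0.68 (adjusted p = 0.000930), *Ms4a4c* at -2.64 ± 0.48 (adjusted p = 0.00121) and *Ms4a6b* at -2.73 ± 0.51 (adjusted p = 0.00182). *Ms4a6c* at -1.45 ± 0.54 (adjusted p = 0.176), *Ms4a4a* at -1.40 ± 0.53 (adjusted p = 0.206) and *Ms4a7* at -2.59 ± 0.65 (adjusted p = 0.0208) did not pass. The median was -2.64, against -0.03 over all genes, and *Ms4a6c* held 78.0% of the UMIs of the family in this sum. The *Ms4a4b* value rests on 5 UMIs in patrolling monocytes. Without WT the calls of *Ms4a4c* (adjusted p = 0.0246) and *Ms4a6b* (adjusted p = 0.0401) were lost, and with 1 more marker per gate those of *Ms4a6b* (adjusted p = 0.0250) and *Ms4a6d* (adjusted p = 0.0132). Without the library block *Ms4a6d*, *Ms4a4c* and *Ms4a6b* were all lost (adjusted p of 0.0392, 0.0449 and 0.0661).

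Cd209a dendritic cells had 3 members called lower than in inflammatory monocytes and 0 higher, against 3.52% and 3.39% of all genes. They were *Ms4a7* at -3.19 ± 0.50 (SE, adjusted p = 6.57e-05), *Ms4a4a* at -3.16 ± 0.47 (adjusted p = 6.80e-05) and *Ms4a6b* at -1.47 ± 0.36 (adjusted p = 0.00630). *Ms4a4c* at -0.52 ± 0.33 (adjusted p = 0.398) and *Ms4a6c* at -0.65 ± 0.40 (adjusted p = 0.382) did not pass, and *Ms4a6d* at -1.23 ± 0.33 (adjusted p = 0.0129) missed the threshold. The members' median was -1.23, against 0.05 over all genes. The *Ms4a7* value rests on 7 UMIs in WT and 10 in TNF-Tg Cd209a dendritic cells. The call of *Ms4a6b* was lost in 5 of 13 alternatives, namely without WT (-0.60, adjusted p = 0.945), without TNF-Tg (adjusted p = 0.0145), without the block (adjusted p = 0.102), with DESeq2 (adjusted p = 0.0371) and with 1 more marker per gate (adjusted p = 0.0453). That of *Ms4a7* was lost without TNF-Tg (adjusted p = 0.148) and, at -1.02, with 1 more marker per gate (adjusted p = 0.401). *Ms4a6d* passed in 5 of 13 alternatives. They were no filter on low counts (adjusted p = 0.000119), without tdT1 (adjusted p = 0.00751) and sums of at least 10 cells (adjusted p = 0.00196). It also passed without cells over 10% mitochondrial (adjusted p = 0.00900) and without the top 5% of cells by UMIs (adjusted p = 0.00453).

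T cells were compared with the mean of the Lyve1 and Ccr2 macrophage and the inflammatory and patrolling monocyte gates. Here 1 member was called higher and 5 lower, against 12.9% and 10.7% of all genes. *Ms4a4b* was higher in T cells by 6.65 ± 0.29 on the log2 scale (SE, adjusted p = 2.08e-14). The 5 lower members ranged from -2.06 ± 0.39 for *Ms4a4c* (adjusted p = 0.000152) to -5.64 ± 0.90 for *Ms4a4a* (adjusted p = 4.09e-05), with *Ms4a6c* at -4.95 ± 0.49 (adjusted p = 1.41e-08). *Ms4a6b* differed by -0.02 ± 0.30 (adjusted p = 1). The 7 members had a median of -4.86, against 0.05 over all genes. Some of the lower values rest on few UMIs in T cells. *Ms4a4a* had 1 in WT and 0 in TNF-Tg, *Ms4a6d* 1 and 3, and *Ms4a7* 3 and 0. The *Ms4a4c* call was lost without WT (adjusted p = 0.207).

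Ear2 phagocytes had 5 members called lower than in Ccr2 macrophages and 0 higher, against 1.88% and 1.32% of all genes. Sums of this gate came from WT and tdT1. The only other tdT1 sum, that of B cells, had no counterpart in another library. With the library as a block, the tdT1 sum of Ear2 phagocytes therefore added nothing to this comparison. The gate rests on the WT sum alone, with no spread of its own. Its p-values assume that this sum varies like those of the other gates. *Ms4a7* stood at -5.07 ± 0.56 (SE, adjusted p = 6.49e-06) and *Ms4a4a* at -6.29 ± 0.76 (adjusted p = 2.88e-05), and *Ms4a6b*, *Ms4a4c* and *Ms4a6d* at -4.28, -3.69 and -3.05. The *Ms4a6d* call was lost with 1 more marker per gate (adjusted p = 0.0171). *Ms4a6c* at -2.01 ± 0.55 (adjusted p = 0.0252) and *Ms4a4b* at -1.62 ± 0.53 (adjusted p = 0.0767) did not pass, and *Ms4a6c* took 67.3% of the UMIs of the family in WT Ear2 phagocytes. With sums of at least 10 cells, which add 12 tdT2 and 13 TNF-Tg Ear2 phagocytes, *Ms4a6c* passed at -2.35 ± 0.42 (SE, adjusted p = 7.82e-05). It also passed, at -1.96, without the filter on low counts. The median over the members was -3.69, against -0.01 over all genes. The *Ms4a4a* value rests on 4 UMIs in WT Ear2 phagocytes. Both gates expressed *Ccr2*, at 1747 CPM in WT Ear2 phagocytes and 1398 CPM in WT Ccr2 macrophages.

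TNF-Tg was set against WT in the 8 gates with at least 20 cells in both libraries, as log2 ratios of CPM with exact 95% intervals that cover counting error only. Pairs of a member and a gate with at least 10 UMIs in all numbered 38, of which 4 were at least 2-fold higher and 3 at least 2-fold lower in TNF-Tg. Of all genes, 3.63% (T cells) to 8.91% (cDC1) were at least 2-fold higher, depending on the gate. The share at least 2-fold lower was 6.54% (Lyve1 macrophages) to 17.5% (NK gate). The cell numbers differed widely, with 1286 WT and 227 TNF-Tg Lyve1 macrophages and 58 WT and 469 TNF-Tg inflammatory monocytes. Ratios in thinned cells came from a random draw other than that of the thinned shares of cells. The noise of the draw was not measured, and it weighs most where few UMIs were left.

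**Figure D4:**
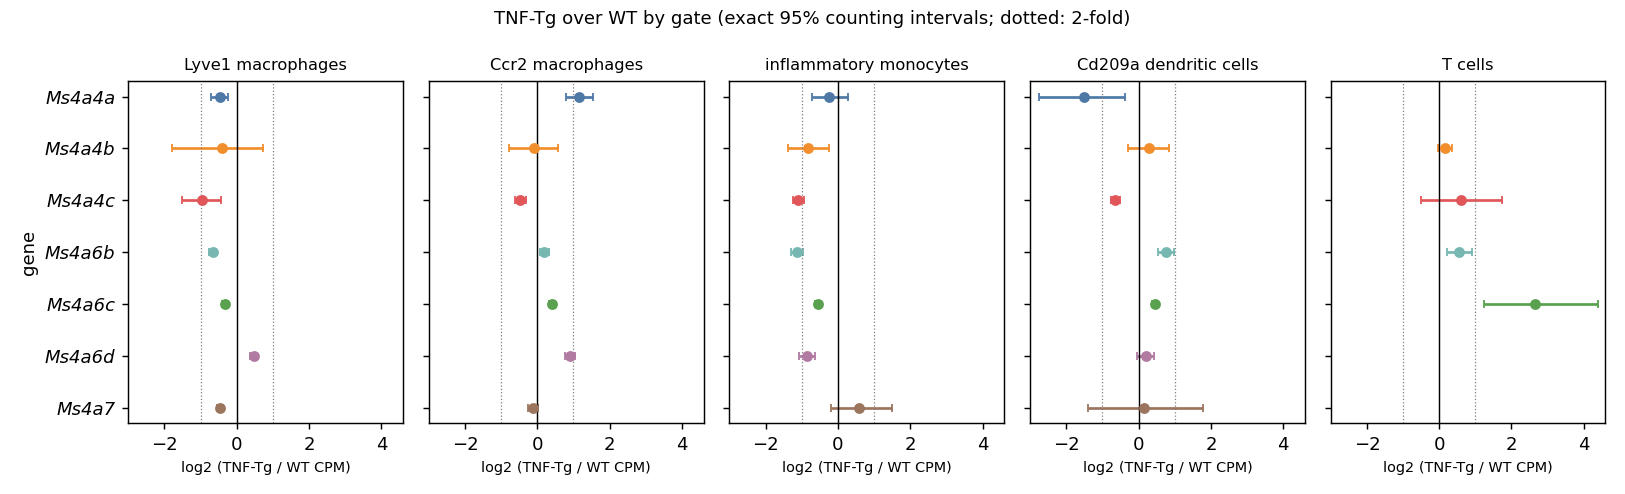
Log2 ratio of TNF-Tg over WT for each *Ms4a* gene in 5 gates, with exact 95% intervals for counting error and dotted lines at 2-fold. In inflammatory monocytes *Ms4a4c* and *Ms4a6b* lay past the lower line at -1.10 and -1.14, in Ccr2 macrophages *Ms4a4a* lay past the upper line at 1.16, and in Lyve1 macrophages no gene reached either line.

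In inflammatory monocytes 2 of 7 members were at least 2-fold lower in TNF-Tg and 0 higher, against 8.84% and 6.19% of all genes. *Ms4a4c* went from 714 CPM in WT to 333 CPM in TNF-Tg, a log2 ratio of -1.10 with an interval from -1.25 to -0.95. *Ms4a6b* went from 611 to 277 CPM, a ratio of -1.14 with an interval from -1.30 to -0.98. *Ms4a6d*, *Ms4a4b* and *Ms4a6c* had ratios of -0.86, -0.84 and -0.55 with intervals whose upper ends lay below 0, and those of *Ms4a4a* at -0.24 and *Ms4a7* at 0.58 crossed 0. In cells thinned to 3000 UMIs *Ms4a7* stood at -0.69. The median over the members was -0.84, against -0.05 over all genes. The share of thinned cells with a UMI went the same way for *Ms4a4c*, from 75.9% to 55.9%, and for *Ms4a6b*, from 79.3% to 45.4%. The Lyve1 list summed to 1039 CPM in WT monocytes (7 of 9 genes detected, *Lyve1* and *Ltc4s* at 0) and 767 CPM in TNF-Tg (9 of 9), and *C1qa* was at 12.04 and 14.8 CPM. The part of these markers in the result was not tested.

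In Ccr2 macrophages 1 of 7 members was at least 2-fold higher in TNF-Tg and 0 lower, against 6.43% and 12.0% of all genes. *Ms4a4a* went from 38.3 CPM in WT to 85.4 CPM in TNF-Tg, a ratio of 1.16 with an interval from 0.79 to 1.54. *Ms4a6d* went from 301 to 563 CPM, a ratio of 0.90 with an interval from 0.77 to 1.04, and its share of the *Ms4a6d* and *Ms4a6b* UMIs from 38.3% to 50.3%. *Ms4a4c* was lower at -0.47 and *Ms4a6c* higher at 0.40, and *Ms4a7* stood at -0.12 with an interval from -0.25 to 0.02. Several ratios left their intervals under alternatives. With 1 more marker per gate *Ms4a4a* stood at 1.70, *Ms4a6b* at 0.32 and *Ms4a7* at 0.13. In cells thinned to 3000 UMIs *Ms4a6d* stood at 0.68, *Ms4a4c* at -0.25 and *Ms4a7* at -0.54. The median was 0.20, against -0.06 over all genes. Markers of another phagocyte moved with the library in this gate, since the 6 genes of the Ear2 list, all detected in both, summed to 6375 (WT) and 394 CPM (TNF-Tg), and the Lyve1 list summed to 2373 and 1664 CPM. Their part in the result was not tested.

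In Lyve1 macrophages 0 of 7 members passed 2-fold in either direction, against 6.02% higher and 6.54% lower of all genes. *Ms4a6d* was the member that was higher in TNF-Tg, at 0.47 with an interval from 0.38 to 0.55, and its share of the *Ms4a6d* and *Ms4a6b* UMIs went from 41.8% in WT to 61.1% in TNF-Tg. The other 6 were lower, from -0.33 for *Ms4a6c* to -0.95 for *Ms4a4c*, whose interval ran from -1.51 to -0.44, and that of *Ms4a4b* at -0.41 crossed 0. The *Ms4a4c* ratio was -0.20 with 1 more marker per gate and -0.25 in cells thinned to 3000 UMIs. In the separate draw for shares of cells, 4.53% of WT and 2.23% of TNF-Tg cells had a *Ms4a4c* UMI. *Ms4a7* stood at -0.46 with an interval from -0.54 to -0.38. Further ratios left their intervals under alternatives. In cells thinned to 3000 UMIs *Ms4a6d* stood at 0.28 and *Ms4a4a* at -0.08. With the TMM factor of the gate *Ms4a6d* stood at 0.36, *Ms4a6b* at -0.77, *Ms4a6c* at -0.43 and *Ms4a7* at -0.56. The share of thinned cells with a *Ms4a6d* UMI was 64.4% in WT and 62.9% in TNF-Tg. The median was -0.46, against 0.05 over all genes. The tdT2 library, from mice without the TNF transgene, held 158 CPM of *Ms4a6d* and 252 CPM of *Ms4a6b* in 29 cells, from 20 and 32 UMIs.

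In Cd209a dendritic cells 1 of 7 members was at least 2-fold lower and 0 higher, against 10.1% and 6.71% of all genes. It was *Ms4a4a*, at 22 UMIs in WT and 10 in TNF-Tg, with a ratio of -1.51 and an interval from -2.75 to -0.37. *Ms4a6b* was higher at 0.76 (interval 0.55 to 0.98) and *Ms4a6c* at 0.45, while *Ms4a4c* was lower at -0.64 (interval -0.78 to -0.51). The inflammatory monocyte list summed to 356 CPM in WT (6 of 7 genes, *Chil3* at 0) and 1060 CPM in TNF-Tg (7 of 7), and its part in the result was not tested. In cDC1, 2 of 3 members were higher, against 8.91% of all genes, namely *Ms4a6c* at 1.64 (interval 1.14 to 2.15) and *Ms4a4c* at 1.90 from 6 and 9 UMIs, in 60 WT and 21 TNF-Tg cells. The *Ms4a6c* ratio was 1.09 without the top 5% of cells by UMIs and 3.00 in cells thinned to 3000 UMIs. The median over the 3 was 1.64, against -0.01 over all genes.

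In T cells 1 of 4 members was at least 2-fold higher and 0 lower, against 3.63% and 12.1% of all genes. *Ms4a4b*, the leading member, differed by 0.16 with an interval from -0.04 to 0.35, and *Ms4a6b* by 0.55 with an interval from 0.21 to 0.90. The member past 2-fold was *Ms4a6c*, with 5 UMIs in WT and 25 in TNF-Tg, a ratio of 2.64 with an interval from 1.23 to 4.39. When cells were thinned to 3000 UMIs this ratio was 0.81. The inflammatory monocyte list summed to 275 CPM in WT T cells (4 of 7 genes) and 461 CPM in TNF-Tg T cells (6 of 7), and its part in the result was not tested. In the NK gate *Ms4a4b* was higher in TNF-Tg at 0.79 with an interval from 0.53 to 1.06. None of 2 members passed 2-fold there, against 4.67% higher and 17.5% lower of all genes. In cells thinned to 3000 UMIs the *Ms4a4b* ratio was 0.49. Its unthinned UMIs came from 13 of 38 WT and 24 of 43 TNF-Tg cells of this gate. The part of the number of positive cells in the result was not tested. In neutrophils *Ms4a6c*, the 1 member tested, had 8 UMIs in each library and did not pass 2-fold, which 8.58% of all genes did upward and 11.3% downward.

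The rest of the family was taken from a list of 14 further *Ms4a* and *Tmem176* genes found in the matrices. *Ms4a1*, which encodes CD20, reached 1043 CPM in the tdT1 B cells and 0 in every other leukocyte sum. *Ms4a2* reached 959 CPM in TNF-Tg basophils and 700 CPM in WT mast cells. *Ms4a4d* was a stromal gene, at 243 CPM in WT, 201 CPM in TNF-Tg, 162 CPM in tdT1 and 184 CPM in tdT2 stromal cells, and no leukocyte sum exceeded 4.39 CPM. It lies between *Ms4a6b* and *Ms4a6d* on the chromosome (11536801 to 11558467, plus strand). *Ms4a8a* was counted at 85.7 and 85.8 CPM in Lyve1 macrophages, 94.8 and 45.3 CPM in inflammatory monocytes of WT and TNF-Tg, and 90.05 CPM in WT Ear2 phagocytes. *Ms4a14*, next to *Ms4a7*, stood at 26.6 and 23.3 CPM in Lyve1 macrophages, 8.70 and 10.0 CPM in Ccr2 macrophages and had no UMI in monocytes. *Ms4a5*, *Ms4a10*, *Ms4a12*, *Ms4a13* and *Ms4a18* had no UMI in any sum, *Ms4a3* reached 4.28 CPM in basophils and *Ms4a15* 0.812 CPM in WT neutrophils, each at most. *Tmem176a* and *Tmem176b*, relatives on chromosome 6, stood at 788 and 1094 CPM in WT Ccr2 macrophages and 95.8 and 149 CPM in TNF-Tg ones.

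The genes most like each member were sought by Pearson's r of log2(CPM + 1) over the 20 WT and TNF-Tg sums, which share libraries, so that the values are descriptions. *Ms4a7* was most like the folate receptor gene *Folr2* (0.95, itself a gate marker) and the platelet factor gene *Pf4* (0.94). *Ms4a4a* was most like *Trem2* (0.94, a gate marker) and the scavenger receptor gene *Msr1* (0.93), and *Ms4a6d* like the Fc receptor gene *Fcgr1* (0.93, a gate marker), *Nxpe5* (0.92) and *Ptgr1* (0.92). *Ms4a4b* was most like *H2-T22* (0.93), *Abhd8* (0.92) and the T cell costimulator gene *Cd27* (0.90). For *Ms4a6c* the nearest were *Gamt* (0.91), *Tm2d2* (0.90) and *Tmem141* (0.90), for *Ms4a6b* *Elk3* (0.87), *Cnpy2* (0.85) and *Atraid* (0.83), and for *Ms4a4c* *Dynll1* (0.86), *Tax1bp3* (0.83) and *Xaf1* (0.83). Among the members themselves *Ms4a4a* and *Ms4a6d* were most alike (0.90). *Ms4a4b* and *Ms4a4c*, the pair with the most similar coding sequence, reached 0.28, and *Ms4a4b* and *Ms4a6c* -0.25.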

How the data were processed

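UMIs were counted per gene and cell in 4 droplet scRNAseq libraries with 3-prime tags. The deposited counts were made by the authors with Cell Ranger (3.1.0 for tdT1 and 6.0.1 for the others, per the file headers; the submitters' notes list 3.1, 3.1.0, Seurat 4.0.3 and mm10) and limited to called cells, with no normalization. Nothing was removed beyond that, except in alternatives.

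Cells entered a gate with a minimum number of distinct markers of 1 fixed list if they did not reach those of another lineage. Both macrophage gates needed at least 6 of 9 pan-macrophage markers and at least 2 C1q genes. Lyve1 macrophages also had at least 7 of 9 Lyve1 markers. Ccr2 macrophages had at most 5 Lyve1 markers and at least 2 of the genes *Ccr2*, *Trem2*, *Cd93* and *Ciita*. Inflammatory and patrolling monocytes had at least 5 of 7 markers, Cd209a dendritic cells 4 of 7 and Ear2 phagocytes 5 of 6. For cDC1 4 of 6 were needed, for T cells 4 of 9 and for NK cells 3 of 7. The monocyte, macrophage, Ear2 and dendritic cell gates counted as 1 lineage, so they did not exclude each other's markers. A cell that met several of them went to the gate with the largest share of its list detected. For both macrophage gates the pan-macrophage list gave that share. No doublet caller was run. In tdT1, tdT2, WT and TNF-Tg, 11, 0, 173 and 90 cells with markers of several lineages were left out, as were 1, 0, 10 and 36 tied cells. The members and lists were chosen with earlier results of these data known, and the minimum numbers of markers were set after the data were seen. All 7 members are named; other genes came from the list of the family, from a rule for genes of like pattern (the 3 highest correlations among genes of at least 20 CPM in 1 sum) and from markers beside a result. 1 listed gene was not analysed here, and 1 gene of like pattern is not reported here.

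Sums of at least 20 cells were tested with edgeR 4.0.16 (R 4.3.3) after filterByExpr and TMM, with Benjamini-Hochberg adjustment; DESeq2 1.42.0 was an alternative. The fit was tested on simulated data. Poisson, Clopper-Pearson and conditional binomial intervals (95%) were computed with scipy 1.17.1 and cover counting error only; PCR and pooling of mice are not in them. Sequences came from GRCm38 with GENCODE M21 and from RefSeq. Alternatives were other filters, normalizations, gates, thinning and leaving out each library.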

Additional observations from a re-analysis of the deposited data

Results flagged for a closer look

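For 6 of the 7 members the TNF-Tg over WT ratio of a gate lay on one side of 0 and that of another gate on the other, each with an exact interval that left out 0. The differences between gates were not tested, since there was 1 library per condition. For each gene the 2 gates furthest apart were taken. The share of all genes that meet this rule was not computed, so the count has no background beside it. They were 2.67 on the log2 scale for *Ms4a4a* (1.16 in Ccr2 macrophages, -1.51 in Cd209a dendritic cells), 1.63 for *Ms4a4b* (0.79 in the NK gate, -0.84 in inflammatory monocytes), 3.00 for *Ms4a4c* (1.90 in cDC1, -1.10 in inflammatory monocytes), 1.90 for *Ms4a6b* (0.76 in Cd209a dendritic cells, -1.14 in inflammatory monocytes), 3.20 for *Ms4a6c* (2.64 in T cells, -0.55 in inflammatory monocytes) and 1.76 for *Ms4a6d* (0.90 in Ccr2 macrophages, -0.86 in inflammatory monocytes). Inflammatory monocytes were the lower side for 5 of the 6. The value of *Ms4a4c* in cDC1 rests on 6 and 9 UMIs and that of *Ms4a6c* in T cells on 5 and 25.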

How the results depend on the processing

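Of 24 calls between gates, 15 were kept in every one of 13 alternatives that could be fitted and 9 were lost in at least 1. Values not called in the main fit passed 10 times over all alternatives, for *Ms4a6c*, *Ms4a6d* and *Ms4a7*. Patrolling monocytes could not be compared without TNF-Tg, nor Ear2 phagocytes without WT, so these leave-outs are missing from their ranges. Without TNF-Tg no sum of patrolling monocytes was left, so T cells were then compared with the mean of the other gates of that comparison. The T cell values without TNF-Tg are therefore not of the same comparison. Leaving out each library in turn gave 2 to 4 members lower in patrolling than in inflammatory monocytes, 1 to 4 lower in Cd209a dendritic cells than in inflammatory monocytes and 1 to 2 higher in Ccr2 than in Lyve1 macrophages; sums left alone in these fits are assumed to vary like the others. Without the library block 1 member was lower in patrolling monocytes, and with 1 more marker per gate 2 were; with that gate 1 was lower in Cd209a dendritic cells. Pairs at least 2-fold lower in TNF-Tg numbered 6, not 3, after thinning to 3000 UMIs, and the cause was not tested. The share of all genes past 2-fold was not computed after thinning. Reversed values, none of them called, were *Ms4a4a* in inflammatory monocytes over Lyve1 macrophages (-0.39 without TNF-Tg to 0.0083 without WT, 0.021 without the block), *Ms4a4a* in Ccr2 over Lyve1 macrophages (-1.05 without TNF-Tg to 0.65 without WT, 0.10 without the block, 0.022 with DESeq2), *Ms4a6d* in Ccr2 over Lyve1 macrophages (-0.19 without TNF-Tg to 0.33 without WT) and *Ms4a6b* in T cells (-1.48 without TNF-Tg to 0.49 without WT, 0.038 without the block, 0.067 with 1 more marker). Of 228 TNF-Tg over WT values under the alternatives, 215 kept their direction. The TMM factor shifted ratios by -0.10 in Lyve1 macrophages to 0.17 in T cells. The leading member was the same in 19 of 19 sums under 4 alternatives. No paired analysis was possible because WT and TNF-Tg have 1 library each, prepared on separate days. Depth limits mast cells (a median of 935 UMIs in WT) and neutrophils (3572 in WT and 3145 in TNF-Tg), and cell number limits cDC1 (60 and 21 cells).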
